A study of Mus musculus with 2 samples.

Results

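The 8 genes described here encode secreted lectins and related mucosal proteins of the gut: Reg1, Reg3a, Reg3b, Reg3g, Reg4, Dmbt1, Itln1 and Clca3b. They are 8 of 31053 gene rows of a single-cell RNA matrix from organoids of mouse small intestine, that is, gut epithelium kept as a culture of stem cells and their progeny. The study set organoids without treatment against organoids given melatonin, and its title asks how melatonin acts together with prostaglandin E2 on regenerative cells driven by the transcriptional regulator YAP. The labels list 1 control and 1 melatonin-treated sample, each from cells of 3 organoid lines pooled on culture day 3; they give no genotype, strain or age. The deposited files of both samples were the same (3 of 3 file pairs identical), so they hold 1 matrix of 21806 barcodes, each ending in suffix 1 (set 1) or suffix 2 (set 2). No label or header ties a suffix to a treatment and none was inferred, so set 1 and set 2 are not called control or melatonin and the direction of every ratio below, set 2 over set 1, is arbitrary. The genes were chosen with knowledge of their levels by set and cell type and of how few cells held their UMIs (unique molecular identifiers, 1 per captured RNA molecule). Those values are therefore given as a description, with no test.

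Reg proteins are small C-type lectins, many of which are secreted by intestinal epithelium. Reg3b and Reg3g bind bacterial surfaces, and in the intact gut their transcription rises with microbial signals through MyD88 and with interleukin-22 through STAT3. Itln1 encodes intelectin, a lectin that binds glycans of microbial surfaces, and Dmbt1 encodes a large scavenger receptor cysteine-rich glycoprotein that binds bacteria. Clca3b belongs to the family of calcium-activated chloride channel regulators, and Reg4 is a Reg family member known from enteroendocrine and goblet cells.

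A barcode counted as a kept cell if it had 500 or more genes, 1000 or more UMIs and no more than 20% mitochondrial UMIs. There were 2300 cells of set 1 with 61628537 UMIs and 1766 cells of set 2 with 51111519 UMIs, at a median of 29872 and 28759 UMIs per cell. Cells were sorted by marker genes that include none of the 8. Goblet-like cells numbered 24 in set 1 and 10 in set 2, cells with goblet and Paneth markers together 6 and 6, enteroendocrine-like cells 271 and 275, enterocyte-like cells 112 and 169, revival-like cells 14 and 18, and stem-like cells 300 and 225. A further 1520 and 1022 cells passed no gate, 44 and 39 passed several, and tuft-like (8 and 2) and Paneth-like (1 and 0) cells were too few to describe. The stem-like gate marks a range rather than a type, since 1940 cells lay within 2-fold of its threshold. Markers of other tissues were near absent: Ptprc, which marks all white blood cells, had 0 UMIs in both sets, the highest of the 8 immune markers (Cd79a) had 61, and no single one of the 8 mesenchymal markers had more than 8 UMIs in a set.

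Reg1, Reg3a, Reg3b and Reg3g are neighbours on chromosome 6, in the order Reg3b, Reg3d, Reg3a, Reg2, Reg1 and Reg3g in the RefSeq gene table. Their promoters are shown because these 4 genes were all lower in set 2 and higher in enterocyte-like than in stem-like cells. Of the 8 genes, 7 matched a promoter entry in RefSeq (build GRCm38.p6), and Dmbt1 did not. Each sequence is the 250 bases before the annotated start, 5′ to 3′ on the gene's strand: Reg1 at chr6:78425733-78425982 (plus strand), Reg3a at chr6:78380459-78380708 (plus strand), Reg3b at chr6:78370635-78370884 (plus strand) and Reg3g at chr6:78468875-78469124 (minus strand). Capitals mark matches on either strand to TATAAA, the core of the TATA box, and to TTCNNNGAA, the core of STAT factor sites.
Reg1: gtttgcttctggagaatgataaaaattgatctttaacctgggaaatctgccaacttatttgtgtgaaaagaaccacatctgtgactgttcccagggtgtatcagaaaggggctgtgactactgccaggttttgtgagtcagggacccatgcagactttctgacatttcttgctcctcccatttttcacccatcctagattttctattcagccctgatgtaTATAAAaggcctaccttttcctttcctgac
Reg3a: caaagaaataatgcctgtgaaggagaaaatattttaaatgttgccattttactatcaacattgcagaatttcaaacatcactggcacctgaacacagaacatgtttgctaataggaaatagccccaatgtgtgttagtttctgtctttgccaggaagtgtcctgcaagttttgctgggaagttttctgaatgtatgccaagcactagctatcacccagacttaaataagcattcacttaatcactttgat
Reg3b: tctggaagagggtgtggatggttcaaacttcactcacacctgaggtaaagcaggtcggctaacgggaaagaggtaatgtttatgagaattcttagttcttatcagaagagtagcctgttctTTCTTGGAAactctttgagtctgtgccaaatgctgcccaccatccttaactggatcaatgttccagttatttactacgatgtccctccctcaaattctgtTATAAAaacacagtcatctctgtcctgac
Reg3g: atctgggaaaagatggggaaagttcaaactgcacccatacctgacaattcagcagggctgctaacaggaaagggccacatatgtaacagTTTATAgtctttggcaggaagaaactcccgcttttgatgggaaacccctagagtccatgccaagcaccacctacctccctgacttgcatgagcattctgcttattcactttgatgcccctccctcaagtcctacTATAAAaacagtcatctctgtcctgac
TATAAA was found within 30 bases of the start in Reg1 (30 to 25 bases before it), Reg3b (29 to 24) and Reg3g (27 to 22), and once more on the other strand in Reg3g (TTTATA, 161 to 156 bases before the start). Reg3a held neither motif in this window. TTCNNNGAA matched only in Reg3b among the 7 genes, as TTCTTGGAA 129 to 121 bases before the start, and overlapped no TATAAA match. Over all 32851 windows of the same length, TATAAA occurred in 12.4% and TTCNNNGAA in 7.02%. The Reg3b and Reg3g windows shared an identical run of 20 bases next to the start, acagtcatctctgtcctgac, while no other pair of the 4 shared a run longer than 11 bases. These matches describe letters only and show no binding.

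Reg1, Dmbt1, Reg3a, Reg3g, Clca3b and Reg3b were lower in set 2 than in set 1, and Reg4 and Itln1 were higher in set 2. The first 4 of these were more than 2-fold lower on CPM + 1, the scale of all ratios here, which understates the ratio of a gene as low as Reg3b. Levels are counts per 1000000 UMIs of the set (CPM), and the ranges in parentheses are exact Poisson 95% intervals, which cover counting error only. Reg1 stood at 60.8 CPM (58.9 to 62.8) in set 1 against 10.0 CPM (9.15 to 10.9) in set 2. Dmbt1 stood at 200.005 CPM (196 to 204) and 72.1 CPM (69.8 to 74.5). Both genes were higher in set 1, by 5.62-fold and 2.75-fold on CPM + 1. Among the 3 Reg3 genes, Reg3g had 11.4 CPM (10.6 to 12.3) in set 1 against 5.03 CPM (4.43 to 5.68) in set 2, and Reg3a had 8.15 CPM (7.45 to 8.89) and 3.17 CPM (2.7 to 3.70). Reg3b rested on 108 UMIs in set 1 and 43 in set 2, or 1.75 CPM (1.44 to 2.12) and 0.841 CPM (0.609 to 1.13). All 3 Reg3 genes thus lay on the same side as Reg1. Clca3b had 75.3 CPM (73.1 to 77.5) in set 1 against 43.2 CPM (41.4 to 45) in set 2. The other two ran the opposite way, with Reg4 at 513 CPM (508 to 519) and 841 CPM (833 to 849), and Itln1 at 586 CPM (580 to 592) and 788 CPM (781 to 796).

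**Figure D1:**
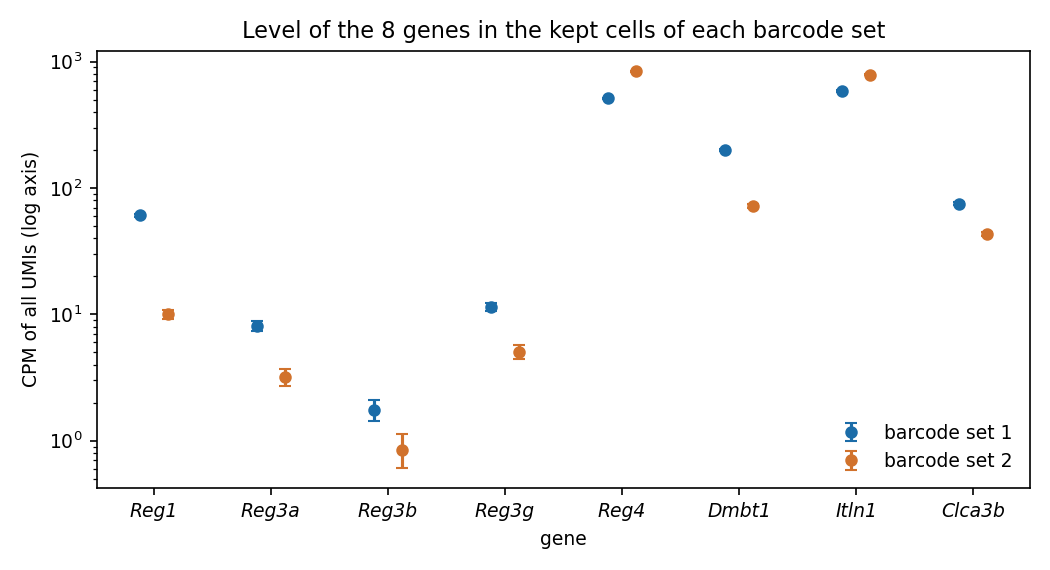
Level of each of the 8 genes in the kept cells of each barcode set, as CPM on a log axis; points are summed UMIs over all UMIs of the set and bars are exact Poisson 95% intervals. Reg1 shows the widest gap, 60.8 against 10.0 CPM, and Reg4 and Itln1 are the genes whose set 2 point lies above the set 1 point.

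As log2 ratios of CPM + 1, the values were -2.49 for Reg1, -1.46 for Dmbt1, -1.13 for Reg3a, -1.04 for Reg3g, -0.79 for Clca3b, -0.58 for Reg3b, 0.43 for Itln1 and 0.71 for Reg4. At least 2-fold lower in set 2 were 4 of the 8 genes, where 0.386% of the 11923 genes with at least 100 UMIs passed that mark. At least 2-fold higher were 0 of the 8, against 0.738% of all such genes. The median log2 ratio was -0.91 over the 8 genes and 0.05 over the 11923. Since the choice of the genes used these levels, nothing is read from the counts. There are no replicates of either set, so a difference compares these pools of cells only. Reg3a was -0.72 with a mitochondrial limit of 10%, and with a pseudocount of 10 CPM it was -0.46 and Reg3g -0.51, below the 2-fold mark.

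Reg1, Reg3a, Reg3b and Reg4 were held by few cells, while Dmbt1, Itln1 and Clca3b were spread over more. The 41 cells with most UMIs of a gene, 1% of all kept cells, held 95.4% of the Reg3b UMIs, 75.9% of Reg3a, 71.0% of Reg1 and 60.0% of Reg4. They held 34.4% of Reg3g, 16.7% of Itln1, 15.2% of Clca3b and 10.6% of Dmbt1. Thus 4 of the 8 genes had at least 50% of their UMIs in 1% of the cells, against 2.82% of the 11923 genes, whose median was 9.5%. With a mitochondrial limit of 10% it was 3 of the 8. This share depends on how many UMIs a gene has: genes within 2-fold of the level of Reg3b, which had a UMI in only 48 cells, had a median of 34.8%, those near Reg3a 14.4%, those near Reg1 6.67% and those near Reg4 4.09%. The median was 11.6% near Reg3g, 5.89% near Clca3b, 4.89% near Dmbt1 and 4.13% near Itln1. All 8 genes thus lay above the median of genes of like level. Expressed as the smallest number of cells that held 50% of the UMIs, the genes ran from 5 cells for Reg3b, 13 for Reg1, 14 for Reg3a and 32 for Reg4 to 94 for Reg3g, 255 for Itln1, 312 for Clca3b and 327 for Dmbt1. Leaving out the 3 highest cells of each gene in each set kept the direction of all 8 ratios, with Reg1 then at 44.5 CPM in set 1 and 5.71 CPM in set 2.

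Reg1, the founding member of the family, named for its link to regenerating pancreas, was mainly an enterocyte-like transcript. Enterocyte-like cells were 281 of 4066 cells and held 62.5% of its UMIs at 281 CPM (271 to 292), against 20.1 CPM (19.1 to 21.1) in cells of no gate, 5.50 CPM (4.39 to 6.80) in stem-like cells and 0.478 CPM (0.130 to 1.22) in enteroendocrine-like cells. Revival-like cells held 0 UMIs of Reg1 among 32 cells; the limit that 3 counts would give is 2.08 CPM. Of the 41 cells highest in Reg1 UMIs per 10000 UMIs, 24 were enterocyte-like and 17 passed no gate, and 36 came from set 1.

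Within enterocyte-like cells Reg1 stood at 669 CPM (642 to 696) in set 1 against 51.1 CPM (45.5 to 57.1) in set 2, a log2 ratio of -3.69. A Reg1 UMI was found in 51 of 112 cells of set 1 (45.5%, 36.1 to 55.2, Clopper-Pearson) and 29 of 169 cells of set 2 (17.2%, 11.8 to 23.7). Enteroendocrine-like cells, which should lack Reg1, had a Reg1 UMI in 1.11% of set 1 cells and 0.364% of set 2 cells, at a median of 14205 and 14578 UMIs per cell, against 33421 and 34479 in enterocyte-like cells. At 2000 UMIs per cell the shares were 26.9% and 3.91% in enterocyte-like cells, with the sets in the same order. Cells with at least 5 Reg1 UMIs per 10000 numbered 26 in set 1 and 4 in set 2. The highest single cell carried 464 Reg1 UMIs, 132 per 10000, in set 1, and 128 Reg1 UMIs, 37.5 per 10000, in set 2. The 3 highest cells supplied 42.9% of the enterocyte-like Reg1 UMIs of set 1 and 70.0% of those of set 2. Without them, Reg1 stood at 394 CPM (373 to 415) and 15.7 CPM (12.6 to 19.3), so the gap between the sets remained.

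**Figure D2:**
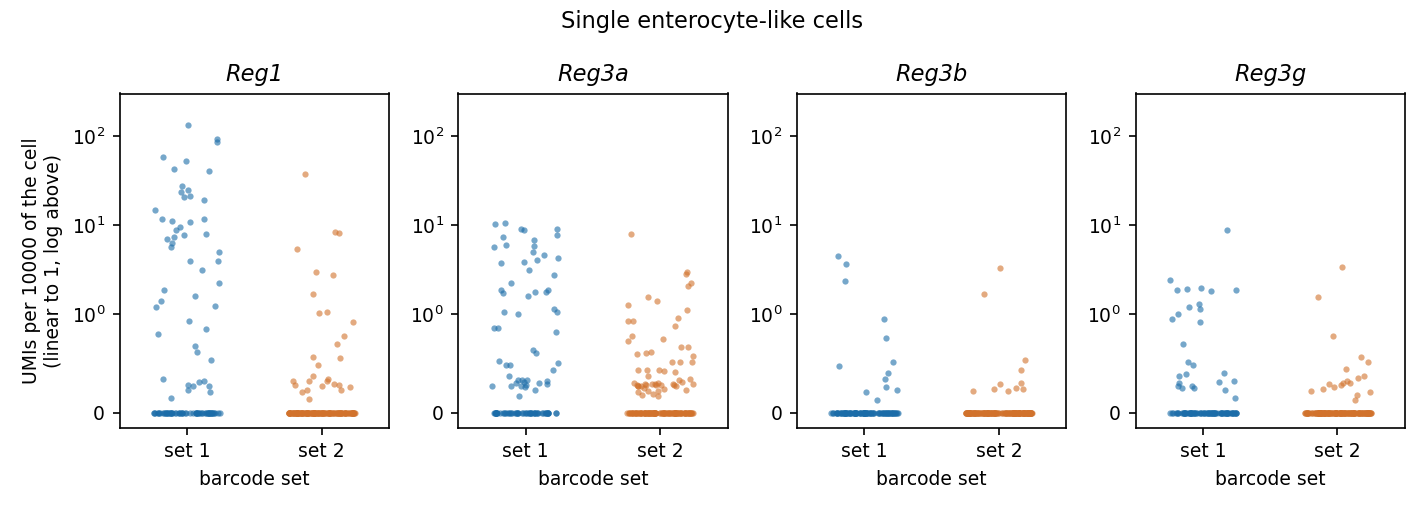
UMIs of Reg1, Reg3a, Reg3b and Reg3g per 10000 UMIs in each enterocyte-like cell of set 1 (112 cells) and set 2 (169 cells), on an axis that is linear up to 1 and logarithmic above; each point is a cell, with sideways jitter. Most cells sit at 0 for each gene except Reg3a in set 1 (56 of 112 cells with a UMI), and 26 cells of set 1 but 4 of set 2 reach 5 per 10000 for Reg1.

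The 10 enterocyte markers, whose sum defines the gate, had a summed level of 45758 CPM in set 1 and 47725 CPM in set 2, a log2 ratio of 0.06 that the gate in part fixes. Single markers were not all level between the sets. Anpep, the aminopeptidase N of the brush border, had 309 CPM in set 1 and 592 CPM in set 2, a log2 ratio of 0.94. Apoa1, an apolipoprotein, had 940 and 1491 CPM, a log2 ratio of 0.67, and the other 8 ran from -0.13 for Alpi, the brush border alkaline phosphatase, to 0.28 for Apoa4. Cells of high marker sum were a larger share of the gate in set 2, with 112 of 169 cells at 400 or more marker UMIs per 10000, against 61 of 112 in set 1. Within the cells at 400 and above, a bin with no upper end in which the sums were not matched further, Reg1 and Reg3a were also lower in set 2. Reg1 had 413 CPM in set 1 and 63.5 CPM in set 2, and without the 3 highest cells of each set 91.3 and 10.9 CPM. Reg3a had 184 CPM in set 1 and 29.7 CPM in set 2, and without the 3 highest cells of each set 139 and 19.8 CPM.

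The Reg3 genes differed among themselves in where they were found. Reg3a was the most restricted, with 91.1% of its UMIs in enterocyte-like cells at 63.9 CPM (58.9 to 69.2), and 39 of its 41 highest cells were enterocyte-like. Reg3b had 53.6% of its 151 UMIs in enterocyte-like cells at 8.56 CPM (6.80 to 10.6), and a single cell of no gate in set 1 held 26 of the rest. Reg3g was spread more widely: cells of no gate held 64.0% of its UMIs at 8.21 CPM (7.57 to 8.89), and the level was 17.4 CPM (14.9 to 20.3) in enterocyte-like, 7.12 CPM (5.85 to 8.58) in stem-like and 0.957 CPM (0.413 to 1.89) in enteroendocrine-like cells. The revival-like value of Reg3g, 19.4 CPM (12.9 to 28.0), was nominally its highest among gates of at least 20 cells, but 24 of its 28 UMIs came from 1 cell, and its interval overlapped those of the enterocyte-like and goblet-like cells (15.4 CPM, 8.45 to 25.9).

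Each Reg3 gene was lower in set 2 within enterocyte-like cells. Reg3a stood at 128 CPM (117 to 141) in set 1 against 25.6 CPM (21.7 to 30.0) in set 2, and without the 3 highest cells at 100.1 and 18.0 CPM. A Reg3a UMI was present in 56 of 112 cells and 59 of 169 cells, or 16.9% and 4.60% of cells at 2000 UMIs per cell. Reg3g stood at 33.7 CPM (27.9 to 40.4) and 7.75 CPM (5.68 to 10.3), with a UMI in 28 and 19 cells. Reg3a and Reg3g thus fell on the same side as Reg1 in these cells, with log2 ratios of -2.28 and -1.99. Reg3b stood at 13.3 CPM (9.79 to 17.7) and 5.73 CPM (3.97 to 8.01), from 13 and 11 cells, and its 3 highest cells held 72.3% and 76.5% of the UMIs, so that its ratio rests on very few cells. Without those cells it was 3.79 CPM (2.02 to 6.48) and 1.38 CPM (0.595 to 2.71), with overlapping intervals.

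Within enterocyte-like cells, 5 of the 8 genes had at least 100 UMIs, and 4 of these were at least 2-fold lower in set 2 (Reg1, Reg3a, Reg3g and Dmbt1), where 0.758% of the 6463 genes with as many UMIs in that gate passed the same mark. Reg3b, below that minimum with 81 UMIs, had a log2 ratio of -1.09, and at the halved gate threshold -0.85. Reg3g did not reach the 2-fold mark with the gate threshold doubled, at -0.68. Of the same 5 genes Itln1 was at least 2-fold higher, against 0.232% of genes. Its log2 ratio of 1.07 became -0.33 at the halved gate threshold, and it rested on single cells: 51.6 CPM in set 1 and 109 CPM in set 2 became 31.5 and 31.1 CPM without the 3 highest cells of each set.

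The cells that carried Reg1 and the Reg3 genes overlapped in part. In the enterocyte-like cells of set 1, 23 cells had both Reg1 and Reg3g, which is 45.1% of the Reg1 cells and 82.1% of the Reg3g cells. Reg1 and Reg3a shared 21 cells, 41.2% of the Reg1 cells and 37.5% of the Reg3a cells. In set 2 the overlaps of Reg1 were smaller: 4 cells with Reg3g, 13.8% of the Reg1 cells and 21.1% of the Reg3g cells, and 9 with Reg3a, 31.0% of the Reg1 cells and 15.3% of the Reg3a cells. Over all enterocyte-like cells, a Reg1 UMI was found in 45.5% in set 1 and 17.2% in set 2. The Reg3a cells lay below these shares in both sets and the Reg3g cells above them. Reg3a and Reg3b shared 8 cells in set 1, 14.3% of the Reg3a cells and 61.5% of the Reg3b cells. In set 2, Reg3a and Reg3b shared 8 cells, 13.6% of the Reg3a cells and 72.7% of the Reg3b cells. Cells of more UMIs are more likely to show both genes, and fewer cells had a Reg1 UMI in set 2. The overlaps are corrected for neither. Among the 41 highest cells of each gene, Reg1 shared 6 with Reg3a and 5 with Reg3g, Reg3a shared 8 with Reg3b, and none of the 4 genes shared any with Itln1 or Clca3b.

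Along the enterocyte marker sum the genes peaked at different points (summed markers per 10000 UMIs, over the enterocyte-like, stem-like and no-gate cells). In set 1 Reg1 rose from 5.65 CPM in cells at 10 to 25, through 28.1 CPM at 25 to 50 and 96.4 CPM at 50 to 150, to 1047 CPM (995 to 1102) at 150 to 400, and was 413 CPM (386 to 441) at 400 and above. Without the 3 highest cells of each bin the last pair of values was 506 and 91.3 CPM, so the peak at intermediate marker sums did not depend on those cells. In set 2 Reg1 was at most 63.5 CPM (55.9 to 71.8), at 400 and above, and 83.5% of that came from 3 cells. Reg3a instead was highest at the top of the range, at 184 CPM (166 to 203) in set 1 against 29.7 CPM (24.6 to 35.6) in set 2, against 45.7 and 17.1 CPM at 150 to 400. Reg3g in set 1 followed Reg1, with 68.9 CPM (55.9 to 84.0) at 150 to 400 and 9.97 CPM (6.17 to 15.2) above. A single cell at 150 to 400 held 36 of the 119 Reg3g UMIs of all enterocyte-like cells of set 1. The height of the Reg3g peak thus rests in part on 1 cell. At 150 to 400, where Reg1 of set 1 peaked, Reg1 of set 2 had 25.4 CPM (18.8 to 33.6).

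**Figure D3:**
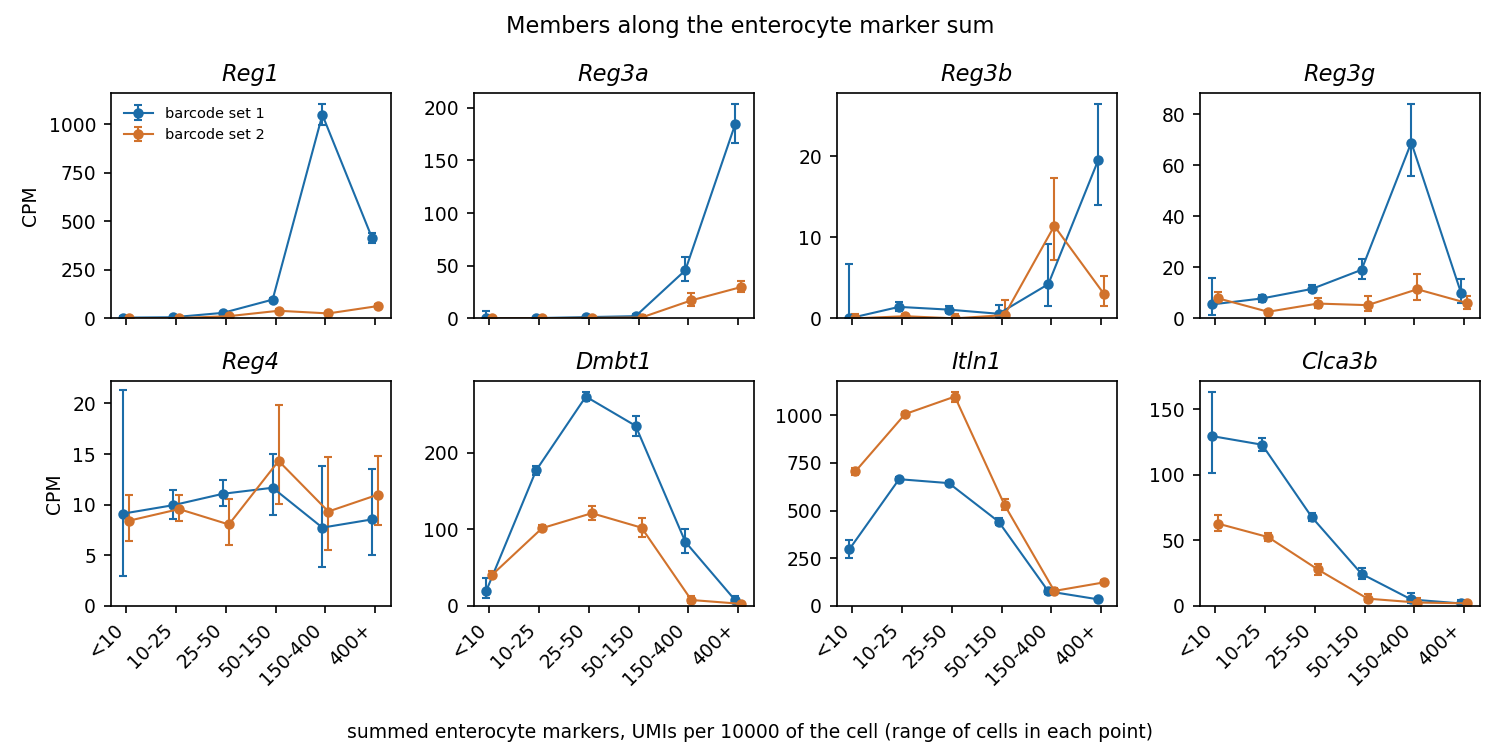
CPM of each gene in cells grouped by their summed enterocyte markers per 10000 UMIs, for set 1 and set 2, on linear axes that differ between panels; points are summed UMIs over all UMIs of the bin, bars are exact Poisson 95% intervals, and lines only join points of a set. Reg1 and Reg3g of set 1 peak at 150 to 400 (1047 and 68.9 CPM), Reg3a rises to 184 CPM at 400 and above, and Dmbt1, Itln1 and Clca3b fall towards high marker sums. At 150 to 400, 36 Reg3g UMIs of set 1 came from 1 cell.

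Dmbt1, the bacteria-binding scavenger receptor glycoprotein, was found mainly in cells that passed no gate and in stem-like cells. Cells of no gate held 87.1% of its UMIs at 186 CPM (183 to 190), and stem-like cells had 110 CPM (104 to 115). Goblet-like cells had 58.5 CPM (43.8 to 76.5), enterocyte-like cells 17.0 CPM (14.5 to 19.9) and enteroendocrine-like cells 14.0 CPM (11.6 to 16.8). Along the enterocyte marker sum it was highest at 25 to 50, with 273 CPM (267 to 280) in set 1 against 121 CPM (113 to 130) in set 2, and fell to 7.60 and 2.75 CPM at 400 and above.

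In every gate of at least 50 cells per set Dmbt1 was lower in set 2. It stood at 251 CPM (246 to 256) and 99.9 CPM (96.4 to 103) in cells of no gate, and at 140 CPM (132 to 148) and 65.9 CPM (59.7 to 72.6) in stem-like cells. In the specialised cells the levels were 38.3 CPM (32.1 to 45.3) and 4.38 CPM (2.86 to 6.42) in enterocyte-like cells, and 23.8 CPM (19.2 to 29.1) and 5.04 CPM (3.16 to 7.63) in enteroendocrine-like cells. Its UMIs were found in 58.1% of set 1 cells and 34.3% of set 2 cells, or 24.7% and 10.0% at 2000 UMIs per cell, where 1.91% of enteroendocrine-like cells of both sets had one. The order of the sets was the same in dividing and other cells: among cells of no gate, Dmbt1 was 251 CPM in cycling and 249 CPM in low-cycling cells of set 1, and 83.2 CPM (79.2 to 87.3) and 127 CPM (121 to 134) in those of set 2. At least 2-fold lower in set 2 within cells of no gate were Reg1 (30.5 against 6.19 CPM), Dmbt1 and Reg3g (11.2 against 4.22 CPM), 3 of the 6 with at least 100 UMIs there, where 0.447% of 10744 genes were. In stem-like cells 5 of the 8 genes had that many UMIs, and 2 of them passed, Dmbt1 and Reg3g (9.28 and 3.97 CPM), where 0.487% of 8421 genes did. Reg1 had 85 UMIs in stem-like cells, below the minimum, with 8.41 and 1.27 CPM. In the other direction 0 of these genes passed in either gate, next to 0.4% of genes in cells of no gate and 0.428% in stem-like cells.

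Reg4 was an enteroendocrine transcript. The 546 enteroendocrine-like cells, 13.4% of all kept cells, held 92.9% of its UMIs at 8294 CPM (8233 to 8356). Of its 41 highest cells, 39 were enteroendocrine-like. A further 5.53% of its UMIs lay in the 83 cells that passed several gates, where 3 cells held 96.9% of them. Cells with goblet and Paneth markers had 267 CPM (214 to 328) and goblet-like cells 57.4 CPM (42.9 to 75.2). Elsewhere the level was 9.62 CPM in enterocyte-like, 12.4 CPM in stem-like and 9.69 CPM in cells of no gate.

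Those low levels can be set beside those of endocrine genes that such cells should lack. In the enterocyte-like, stem-like and no-gate cells of each set Reg4 stood at 0.0931% to 0.194% of its enteroendocrine-like level, and Chgb, a granin of endocrine vesicles, at 0.106% to 0.128% of its own. Reg4 was above Chgb on this scale in set 1, at 0.194% (0.161 to 0.232) against 0.127% (0.116 to 0.139) in stem-like cells and 0.151% (0.137 to 0.166) against 0.120% (0.115 to 0.125) in cells of no gate. It was below Chgb in cells of no gate of set 2, at 0.0931% (0.0826 to 0.104) against 0.120% (0.114 to 0.126), and in the 3 remaining groups of cells the intervals overlapped. Tph1, the serotonin synthesis enzyme, ran from 0.0461% to 0.217% of its own enteroendocrine-like level on 2 to 58 UMIs, the highest in stem-like cells of set 2 (0.122 to 0.358), and Chga from 0.0847% to 0.134%. A Reg4 UMI occurred in 26.0% of enterocyte-like cells (median of 34286 UMIs) against 43.8% of enteroendocrine-like cells (median of 14258.5 UMIs), and at 2000 UMIs per cell in 1.98% against 29.9%. No expression of Reg4 is read from the share of enterocyte-like, stem-like and no-gate cells with a UMI, and the part of free RNA in it was not tested. The secretory cells stood higher: at 2000 UMIs per cell a Reg4 UMI was present in 34.7% of the 12 cells with goblet and Paneth markers and 9.59% of goblet-like cells.

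Among enteroendocrine-like cells most Reg4 UMIs lay in cells with Tph1, the rate-limiting enzyme of serotonin synthesis in enterochromaffin cells. Cells with at least 5 Tph1 UMIs per 10000, a limit set after the data had been seen, numbered 160 in set 1 and 154 in set 2, and held 83.2% and 95.9% of the enteroendocrine-like Reg4 UMIs. Reg4 stood there at 9615 CPM (9489 to 9741) and 17620 CPM (17449 to 17792). Tph1-poor cells with at least 5 UMIs per 10000 of Neurog3, the transcription factor of endocrine progenitors, had 27.9 CPM (12.7 to 52.9) in 27 cells and 37.3 CPM (10.2 to 95.5) in 10 cells. Cells below both limits had 3371 CPM in 84 cells and 886 CPM in 111 cells, at a median of 0 in both sets. A Reg4 UMI was present in 23 and 27 of these cells, and 9 and 4 reached 100 per 10000. The cells of this class with most Reg4 lay just under the Tph1 limit, with 1053 UMIs at 4.90 Tph1 per 10000 in set 1 and 971 UMIs at 4.14 in set 2. Reg4 was thus high in Tph1 cells of both sets and low in Neurog3 cells. Tph1 cells were not uniform, since 78 of 160 and 101 of 154 had a Reg4 UMI, while 37 and 54 reached 100 per 10000.

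**Figure D4:**
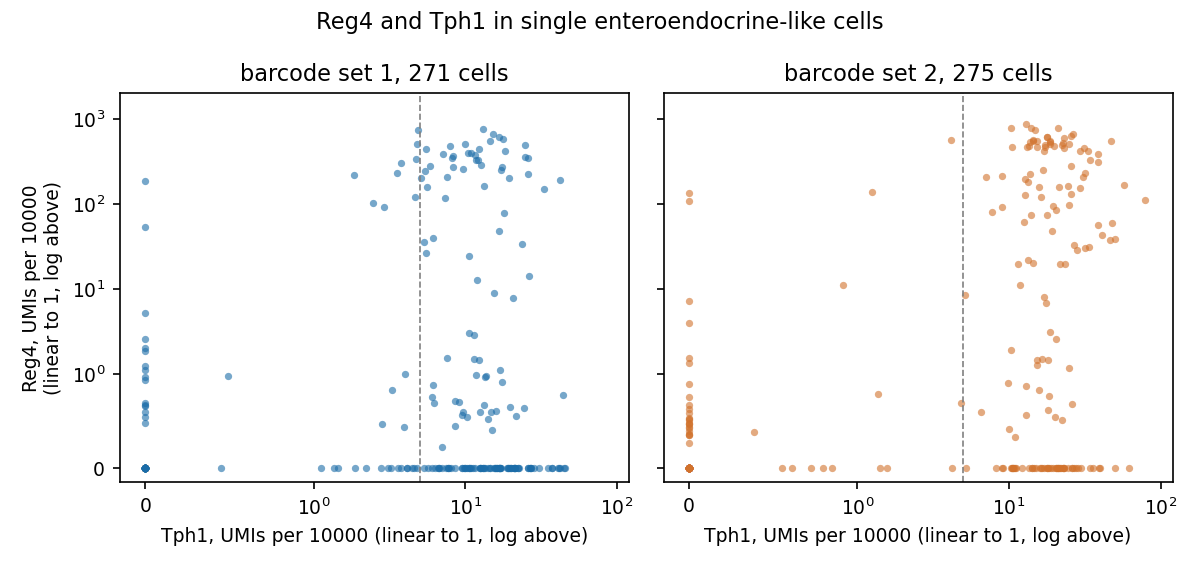
Reg4 against Tph1 in single enteroendocrine-like cells, as UMIs per 10000 UMIs of the cell, with both axes linear up to 1 and logarithmic above; each point is a cell and the dashed line marks 5 Tph1 UMIs per 10000. Cells right of the line number 160 in set 1 and 154 in set 2 and include most cells above 100 per 10000 of Reg4 (37 and 54), next to many Tph1 cells at 0.

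Over all enteroendocrine-like cells Reg4 was 6750 CPM (6669 to 6831) in set 1 against 9709 CPM (9617 to 9802) in set 2, a log2 ratio of 0.52. The cells that passed several gates ran the other way, with 4811 CPM in set 1 and 117 CPM in set 2, on the few cells named above. Within enteroendocrine-like cells, 1 of the 4 genes with at least 100 UMIs there was at least 2-fold lower in set 2, Dmbt1, where 0.794% of 7808 genes were, and 0 were at least 2-fold higher, where 0.435% were. Over the 271 cells of set 1 and 275 of set 2, the correlation of log values with Reg4 was 0.71 and 0.81 for Chga, chromogranin A, 0.74 and 0.73 for Trpa1, an irritant-sensing channel, and 0.62 and 0.77 for Tpbg, the trophoblast glycoprotein. It was lower for Tph1, at 0.24 and 0.53, next to 0.31 and 0.47 for Chgb and 0.20 and 0.44 for Tac1. It was -0.27 and -0.45 for the hormone gene Cck, and -0.39 and -0.30 for Neurog3. These cells are not replicates and differ in depth, and the values are a description.

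Itln1 was found in most cells and was highest in the few secretory cells. The 12 cells with goblet and Paneth markers had 6920 CPM (6641 to 7209), 3 of them holding 73.6% of those UMIs, and the 34 goblet-like cells 1942 CPM (1852 to 2035). Stem-like cells followed at 1081 CPM (1064 to 1097) and cells of no gate at 693 CPM (687 to 699), which held 67.8% of its UMIs. Enteroendocrine-like cells had 179 CPM (170 to 188) and enterocyte-like cells 87.6 CPM (81.7 to 93.8). The order among neighbours moved with the cell filter and gate: with a mitochondrial limit of 10%, or with the gate threshold doubled, stem-like cells were highest among gates of at least 20 cells.

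Itln1 was higher in set 2 in stem-like and no-gate cells and level in enteroendocrine-like cells. Stem-like cells had 846 CPM (827 to 865) in set 1 against 1422 CPM (1393 to 1452) in set 2, and cells of no gate 581 CPM (574 to 588) and 843 CPM (833 to 853). The enteroendocrine-like values were 176 CPM (163 to 190) and 181 CPM (169 to 194). A UMI of Itln1 was present in 75.6% and 75.9% of all cells, and in 39.1% and 39.4% at 2000 UMIs per cell. Enterocyte-like and enteroendocrine-like cells also had a UMI in 50.2% and 52.0% of cells. The part of free RNA in these shares was not tested, so they are not read as counts of cells that express the gene. The share of cells with a UMI at 2000 UMIs ran from 7.27% of enterocyte-like to 53.6% of stem-like cells.

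Clca3b was higher in stem-like and goblet-like cells than in enterocyte-like cells. Stem-like cells had 104 CPM (99.0 to 109), goblet-like cells 164 CPM (139 to 193), cells of no gate 61.2 CPM (59.4 to 63.0), enteroendocrine-like cells 17.5 CPM (14.7 to 20.5) and enterocyte-like cells 2.54 CPM (1.63 to 3.77). The revival-like level of 177 CPM (156 to 200) was the highest of all, but 196 of its 255 UMIs came from 1 cell of set 2. Without the cells in the top 5% of UMI counts, goblet-like cells were highest, and with the gate threshold doubled, stem-like cells. Along the enterocyte marker sum from 10 upward Clca3b fell throughout. In set 1 it went from 123 CPM (118 to 128) at 10 to 25 to 1.90 CPM (0.517 to 4.86) at 400 and above. In set 2 it went from 52.5 CPM (49.6 to 55.6) to 2.0 CPM (0.863 to 3.94). It was lower in set 2 in stem-like cells, at 123 CPM (116 to 131) against 75.9 CPM (69.3 to 83), and in cells of no gate, at 75.9 CPM (73.3 to 78.6) against 41.5 CPM (39.3 to 43.8). In enteroendocrine-like cells, at 14.3 CPM (10.8 to 18.5) and 20.4 CPM (16.4 to 25.1), the intervals overlapped.

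**Figure D5:**
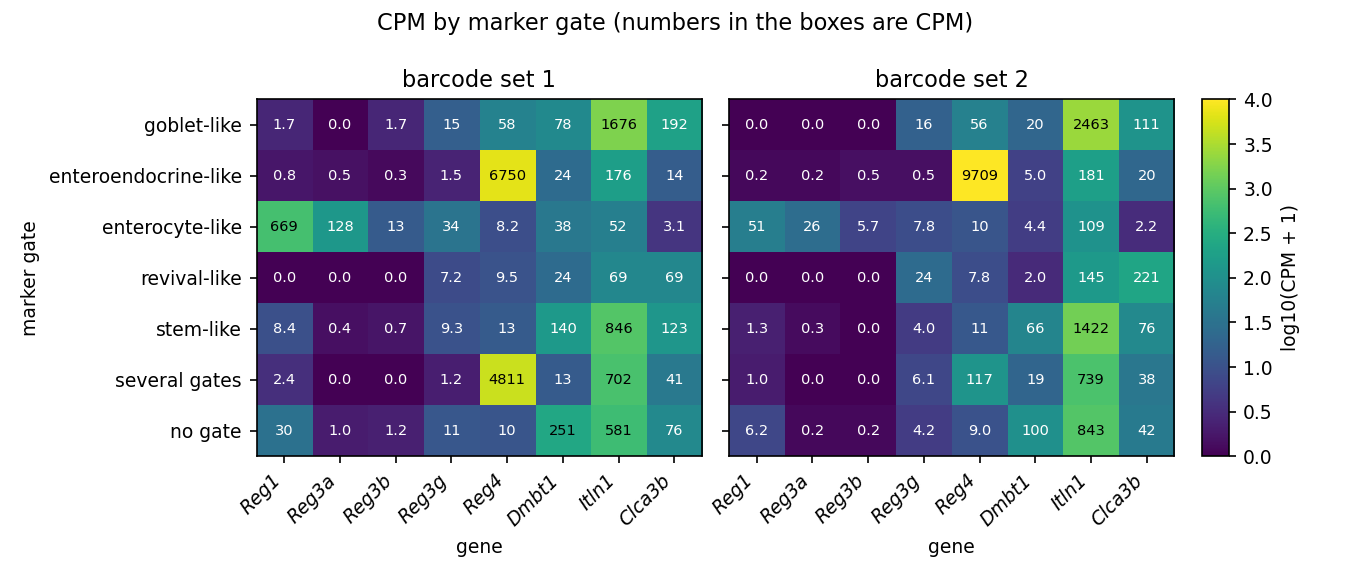
CPM of each gene (columns) in each marker gate (lines of boxes) for set 1 and set 2; the colour is log10(CPM + 1) and the number in a box is the CPM. Reg4 is brightest in enteroendocrine-like cells (6750 and 9709 CPM), Reg1 and Reg3a in enterocyte-like cells, and Itln1 is high in goblet-like and stem-like cells, while goblet-like (24 and 10 cells) and revival-like (14 and 18 cells) levels rest on few cells.

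Genes that varied most like a member over the kept cells included enterocyte genes for Reg1 and ribosomal protein genes for Dmbt1 and Itln1. Correlations of log values were ranked in each set, over 2300 and 1766 cells, and only genes among the 10 highest in both sets are given. Reg4 had the strongest, with Trpa1 at 0.72 and 0.78, Tpbg at 0.63 and 0.82 and Afp at 0.67 and 0.72. Reg1 went with Alpi (0.32 and 0.20) and Fabp1, the fatty acid binding protein of enterocytes (0.29 and 0.20). Dmbt1 and Itln1 went with ribosomal protein genes and, for Dmbt1, the chaperone gene Hspd1 (0.36 and 0.27), and both with Rps4x (0.34 and 0.28 for Dmbt1, 0.30 and 0.38 for Itln1). Clca3b went with Slc12a2, a chloride cotransporter counted among the stem markers (0.29 and 0.30), Tubb5 (0.29 and 0.29) and Hmgb2 (0.28 and 0.27). Reg3g reached only 0.15 and 0.15, with Stat5b. The cells of a set are not replicates and differ in depth, and values as low as that of Reg3g are no finding.

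Related genes are given by the counts of 5 lists, to be read beside the shares over all genes, 0.386% at least 2-fold lower and 0.738% at least 2-fold higher in set 2. With so few genes a list, a count of 0 is near those shares and sets no list apart from other genes. Of 8 other Reg and Clca rows, 3 had at least 100 UMIs, and 0 of these were 2-fold lower or higher in set 2; Reg2 had 0 UMIs and Reg3d 5 in all, and Clca4b had 53.5 and 62.1 CPM. Of 9 other lectins in the matrix, 7 had enough UMIs, 0 were lower and 2 were higher: Lgals3, a galectin, at 37.1 and 96.1 CPM, and Zg16, a goblet cell lectin, at 0.0811 and 24.6 CPM, with 100% of its UMIs in 41 cells. Among 15 other mucosal defence genes, 6 had enough UMIs and 0 passed in either direction, with Pigr, the receptor that carries IgA through the epithelium, at 565 and 570 CPM, Lypd8 at 216 and 165 CPM, and Retnlb at 0 UMIs. The receptors and transducers upstream of Reg3 genes gave 12 of 18 with enough UMIs and 0 in either direction: Stat3 stood at 21.4 and 24.6 CPM and Myd88 at 8.73 and 9.65 CPM, while Il22ra1, a subunit of the interleukin-22 receptor, had 7 and 14 UMIs. Of 8 STAT3 targets 7 had enough UMIs and 0 passed, with Socs3, its feedback inhibitor, at 14.7 and 13.9 CPM. The median log2 ratios of these 5 lists ran from 0.06 to 0.29, next to 0.05 over all genes.

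The barcodes left out by the filter showed the same order of the sets for most of the genes. Here CPM is scaled to the non-mitochondrial UMIs, since mitochondrial RNA made up much of these barcodes. Reg1 stood at 60.6 CPM (57.1 to 64.1) in the 10064 left-out barcodes of set 1 and 10.3 CPM (8.79 to 12.1) in the 7676 of set 2, and Dmbt1 at 268 CPM (260 to 275) and 85.8 CPM (81.2 to 90.6). Reg3a, Reg3g and Clca3b were likewise higher in set 1 and Itln1 in set 2. Reg3b, with 25 and 44 UMIs, and Reg4 ran against the kept cells, at 1.29 against 2.92 CPM and 251 against 176 CPM. On both sides of the 20% limit the order held for Reg1, which was 129 and 21.8 CPM in barcodes of 10% to 20% mitochondrial UMIs, and 61.6 and 9.59 CPM in those of 20% to 50%. Reg4 was 286 and 808 CPM just inside the limit and 326 and 201 CPM just outside it, so its set order turned there.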

How the data were processed

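The data were deposited raw UMI counts per gene and barcode, whole numbers with no normalization by the authors, from droplet-based 3′ RNA libraries per the labels' protocols. The submitters' processing notes name Cell Ranger 3.1.0, bcl2fastq 2.20.0 and STAR 2.7.3a; the genome build was not given in the sources used here. UMIs were summed per barcode suffix and marker gate with Python 3.11.15, numpy 2.4.6, scipy 1.17.1 and pandas 2.3.3, and drawn with matplotlib 3.10.9. A cell passed a gate with at least 3 markers detected and a marker sum per 10000 UMIs of at least 150 (enterocyte), 50 (goblet), 20 (Paneth, enteroendocrine, revival), 10 (stem, only if no other gate) or 5 (tuft). These thresholds were set from the distribution of the sums without looking at the 8 genes. Cells counted as cycling had at least 10 UMIs per 10000 over 10 proliferation markers. Of 31053 gene identifiers, 30934 matched the reference table. Doublets were not called or removed, and the cells that passed several gates may include some. A total of 29 barcode sequences carried both suffixes, 0 of them among kept cells.

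Log2 ratios used a pseudocount of 1 CPM, which understates low genes, and were called at 2-fold. Comparisons over all genes took those with at least 100 UMIs. UMI levels are compared within a gene and not between genes, since capture differs by gene. Shares of cells used thinning to 2000 UMIs (expected share, hypergeometric), so that 265 shallower cells in set 1 and 77 in set 2 did not enter. With 1 matrix, and cells that are not replicates, no test was run. All 8 genes are described; further genes are those among the 10 highest correlations in both sets, up to 3 per gene, for members with at least 200 UMIs in each set and genes of at least 0.05 UMIs per cell, together with 5 lists of related genes. A single further gene that met this rule is not reported here. Pearson correlations used log1p of UMIs per 10000. The 8 genes, the lists and the rules were chosen with earlier results of these data known. The ratio step was checked on simulated data. Alternatives were other filters, pseudocounts, gate thresholds, cell means and left-out cells.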

Additional observations from a re-analysis of the deposited data

How the results depend on the processing

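No paired analysis was possible because both samples hold 1 matrix and the barcode suffixes carry no replicate numbers. No direction of the 8 set ratios turned in 72 alternative values, of which 47 moved by less than the counting interval and 25 by more; Reg1 ran from -2.87 to -1.82, Dmbt1 from -1.48 to -1.31, Reg3a from -1.77 to -0.46 and Reg4 from 0.32 to 0.80. The count of genes at least 2-fold lower was 2 with a pseudocount of 10 CPM (4 as reported), which compresses low genes by construction. With a mitochondrial limit of 10%, which kept 2397 cells, 1 gene in place of 2 had its highest level in a secretory gate, Itln1 being then highest in stem-like cells; the count was 3 with no mitochondrial limit, without the top 5% of UMI counts, with CPM averaged over cells and with the gate threshold halved. Within enterocyte-like cells, counted over all 8 genes whatever their UMIs, 4 in place of 5 were at least 2-fold lower at the doubled gate threshold, Reg3g being lost at -0.68, and 5 at the halved one, with Clca3b at -1.27 in place of Reg3b at -0.85. In the other direction 0 in place of 1 passed at the halved threshold, where Itln1 turned to -0.33, and 0 without the 3 highest cells of each gene, settings chosen after seeing the data, as was weighting set 2 to the cell mix of set 1.

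Depth set the share of cells with a UMI. For Reg1, Reg3a, Reg3b, Reg3g, Reg4, Dmbt1, Itln1 and Clca3b it was 2.81%, 0.786%, 0.186%, 1.35%, 6.54%, 18.1%, 39.2% and 9.23% at 2000 UMIs per cell. At 5000 UMIs, over 3532 cells, it was 4.88%, 1.51%, 0.387%, 3.13%, 9.66%, 30.7%, 54.2% and 19.1%, and without thinning 11.7%, 4.18%, 1.18%, 12.1%, 28.4%, 47.7%, 75.7% and 44.9%. Reg3b, with 151 UMIs, is at the limit of what these data can describe.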
